A study of Mus musculus with 10 samples.

Results

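The 10 genes described here encode precursors of secreted neuropeptides (*Pdyn*, *Pnoc*, *Tac2*, *Nts*, *Cort*, *Cartpt* and *Adcyap1*) and granins, the acidic proteins of secretory granules (*Scg2*, *Chgb* and *Vgf*). They were taken by name from the 22000 genes of a count table of the mouse prefrontal cortex (PFC), and all 10 passed the filter on low counts. The choice was made with earlier results of these data known, so shares set beside all genes are a description and not a test of the set. The table holds RNA-seq counts of 5 *Zbtb16* KO and 5 wild-type (WT) mice, 1 library per mouse, and the comparison of interest is KO against WT. *Zbtb16* encodes the zinc finger transcription factor PLZF. Both copies of *Zbtb16* in the KO mice carried the *lu* allele, a spontaneous germline point mutation that creates a stop codon, and the WT mice lacked it. All mice were 7 weeks old, labelled as male and given no treatment or other allele in the labels. The allele is a stop codon and not a deletion, and the transcript was still counted, at 47.4 ± 4.96 CPM (counts scaled to the library total, SD, n = 5) in KO and 79.0 ± 7.23 CPM (SD, n = 5) in WT mice.

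Neuropeptides are made as inactive precursors that convertases and exopeptidases cut inside dense core vesicles, and they act on G protein-coupled receptors of nearby cells. Granins are packed into the same vesicles, take part in their formation and are themselves cut into peptides. In the neocortex most peptide precursors are made by subsets of GABAergic interneurons and some by projection neurons, while granins are found in most neurons, and the transcription of several of these genes is known to follow neuronal activity.

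The libraries held 30220122 to 51231439 counts, so that 3 counts, the floor of detection, stood for 0.0586 to 0.0993 CPM (counting error only). The RNA integrity number (RIN) was 9.5 or above in 6 mice and 8.1 to 8.3 in 4 mice, KO mice 3 and 5 and WT mice 3 and 4. The library labelled KO mouse 3 had 1 count over 4 Y-linked genes, against 4376 to 8182 in the other mice, which goes against its label as male. KO mouse 5 stood apart, with a weight of 0.87 on the first surrogate variable against -0.30 to 0.11 in the others. Such a variable gives each mouse a number, computed from all genes, for differences between libraries that no label records. Marker genes of cortical excitatory neurons summed to 2255 to 2657 CPM in KO and 2148 to 2462 CPM in WT mice, and those of cortical interneurons to 989 to 1109 CPM and 1021 to 1153 CPM. No gene of either list passed the test between genotypes in edgeR or DESeq2. In each list 2 of 10 had an unadjusted p under 0.05 in edgeR, beside 10.6% of all genes. Named after their values were seen, these were *Rorb* and *Fezf2* (log2 fold changes 0.26 and 0.18) of the excitatory list. Those of the interneuron list were *Calb2* and *Pvalb*, which went opposite ways (0.41 and -0.14).

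Levels of the 10 genes in the WT cortex were compared per length, as CPM per kilobase of exon. *Chgb* was highest at 178 ± 10.01 (SD, n = 5), followed by *Vgf* at 88.3 ± 8.54 and *Scg2* at 83.9 ± 4.21 CPM per kilobase. The 3 granins thus stood well above every peptide precursor among the 10 genes. This does not extend to other precursors: in CPM, not divided by length, *Cck* was at 331 ± 29.5 and *Vgf* at 263 ± 25.4 in WT mice (SD, n = 5 each). The ranges of *Vgf* and *Scg2* overlapped in WT mice, and those of *Chgb* and *Vgf* did not. Among the precursors, *Pdyn* was at 9.25 ± 0.949, *Cort* at 8.20 ± 2.08 and *Adcyap1* at 6.32 ± 1.10 CPM per kilobase. *Tac2* was at 3.47 ± 0.374, *Cartpt* at 2.65 ± 0.973, *Pnoc* at 2.29 ± 0.382 and *Nts* at 0.640 ± 0.494 CPM per kilobase. Ranges of neighbours in this order overlapped from *Pdyn* through *Adcyap1* and from *Tac2* through *Pnoc*, while *Scg2* lay above *Pdyn*, *Adcyap1* above *Tac2*, and *Pnoc* above *Nts*, in every WT mouse. In KO mice the mean of *Tac2*, 5.51 ± 0.751, lay above that of *Adcyap1*, 5.08 ± 0.803 CPM per kilobase, and this change of order was not tested as such.

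Of the 10 genes, 1 passed the test between genotypes: *Tac2* was higher in KO mice, with a log2 fold change of 0.58. Across the 14344 genes tested, 0.844% were called by the same rule, adjusted p under 0.05 in edgeR's quasi-likelihood test with 3 surrogate variables and Benjamini-Hochberg adjustment over all genes. An unadjusted p under 0.05 was reached by 3 of the 10, *Tac2*, *Adcyap1* and *Pdyn*, and by 10.6% of all genes. The median log2 fold change of the 10 genes was 0.046, beside a median of -0.0044 over all genes. In 7 of the 10 the fold change was above 0, among them *Chgb* and *Cort*, which were near 0 and each stayed above it in 17 of 25 alternative fits. The genotypes were fully separated, with every mouse of one above every mouse of the other, for 1 of the 10, *Tac2*, and for 1.58% of all genes. Without surrogate variables, *Tac2* was again the 1 gene called among the 10, and 0.209% of all genes were called.

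**Figure D1:**
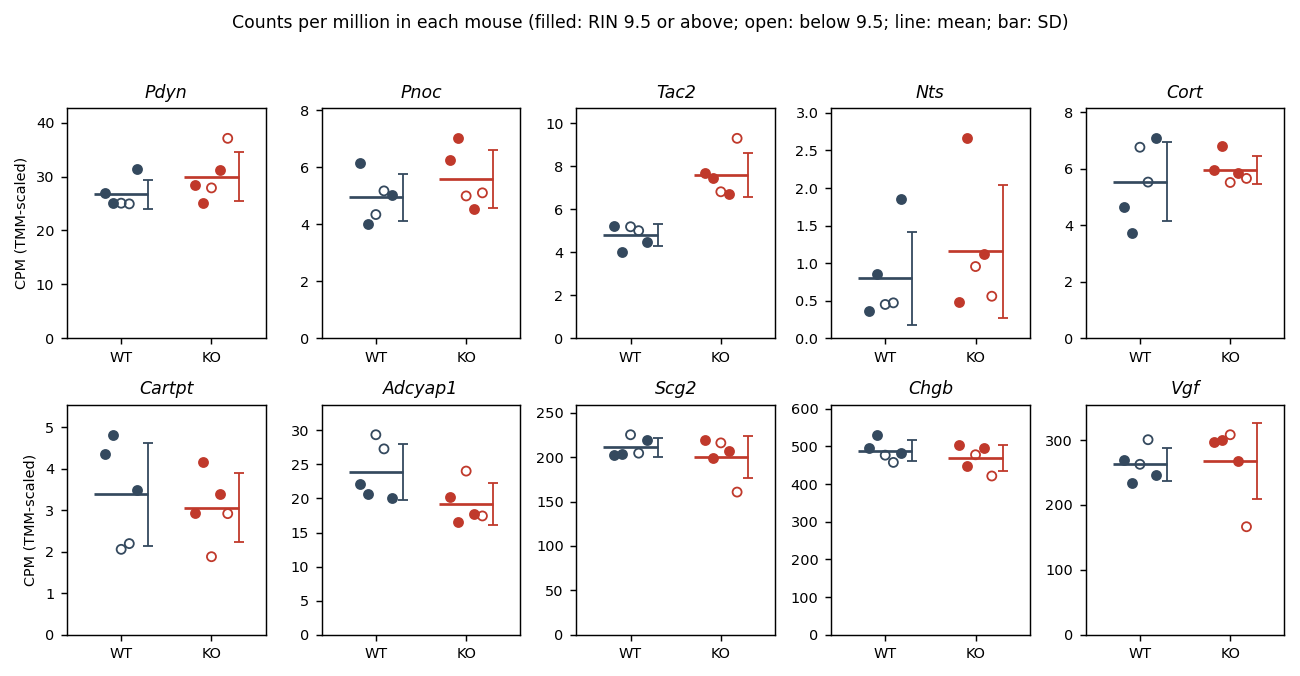
CPM (vertical axes, each from 0) of the 10 genes in each WT and KO mouse. Points are mice, filled for a RIN of 9.5 or above and open for a lower one, lines are means and bars SD (n = 5). All 5 KO mice lie above all 5 WT mice for *Tac2*, and the genotypes overlap for the other genes.

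*Pdyn* (chromosome 2 of GRCm38, 129686565 to 129699844, minus strand, ENSMUSG00000027400.11) encodes prodynorphin, the precursor of the dynorphins, which act on the kappa opioid receptor. *Pdyn* was at 28.5, 25.1, 27.9, 31.2 and 37.1 CPM in KO mice 1 to 5. In WT mice 1 to 5 it was at 27.0, 25.2, 25.1, 24.9 and 31.4 CPM. KO mouse 5 had the highest value and the genotypes overlapped. Between genotypes the log2 fold change was 0.13 (SE 0.059), and the adjusted p of 0.447 from edgeR did not pass the threshold. Striatal neurons express *Pdyn* strongly, and the summed level of 9 striatal marker genes ran from 284 to 428 CPM in KO and from 257 to 515 CPM in WT mice. Of these 9 markers 0 passed the test in edgeR, and the median log2 fold change was 0.21. An unadjusted p under 0.05 in edgeR was reached by 4 of the 9, beside 10.6% of all genes. DESeq2 called 1 of the 9, *Gpr6*, beside 233 of the 14344 genes tested. *Gpr6*, named after its values were seen, had a log2 fold change of 1.22 (SE 0.28, adjusted p = 0.0575) in edgeR. Over the 10 mice, with genotype means subtracted, *Pdyn* and this sum had a Pearson's r of 0.71 and a Spearman's rho of 0.48 (permutation tests, p = 0.0242, adjusted p = 0.351, and p = 0.165, adjusted p = 0.617, over 30 relations). Without the 2 mice with the most extreme *Pdyn*, KO mouse 5 and WT mouse 5, r was 0.39, so the size of r depends on those mice. Leaving out extreme mice also narrows the range of *Pdyn*, which by itself can lower r. With genotype alone in the model, the log2 fold change of *Pdyn* was 0.17 (SE 0.096, adjusted p = 0.695 in edgeR). With genotype and a striatal marker score it was 0.082 (SE 0.081, adjusted p = 0.889 in edgeR). Of the 30 relations of these genes with sums of marker lists, 2 had an unadjusted p under 0.05 for Pearson's r and 0 an adjusted one. The other was *Cartpt* with the interneuron sum (r = 0.67, permutation p = 0.0379, adjusted p = 0.351). *Adcyap1* and the striatal sum had r = -0.58 and rho = -0.73 (permutation tests, p = 0.0619, adjusted p = 0.351, and p = 0.0206, adjusted p = 0.594). The part of striatal tissue in the level of *Pdyn* was not tested beyond these values.

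*Pnoc* (chromosome 14, 65400673 to 65425472, minus strand, ENSMUSG00000045731.6) encodes prepronociceptin, the precursor of nociceptin, the ligand of the opioid-related receptor *Oprl1*. Its level was 6.24, 7.01, 4.99, 4.55 and 5.10 CPM in KO mice 1 to 5, and 6.15, 4.02, 4.34, 5.17 and 5.03 CPM in WT mice 1 to 5. The ranges overlapped in part: KO mice 1 and 2 lay above every WT mouse, and WT mice 2 and 3 below every KO mouse. A log2 fold change of 0.14 (SE 0.16) did not pass the test (edgeR, adjusted p = 0.823).

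*Tac2* (chromosome 10, 127724478 to 127731768, plus strand, ENSMUSG00000025400.11) encodes the precursor of neurokinin B, the tachykinin that binds the receptor *Tacr3*, and in the mouse neocortex it is made by a subset of interneurons. *Tac2* was at 7.68, 7.45, 6.81, 6.73 and 9.30 CPM in KO mice 1 to 5, from 221 to 481 counts per mouse. In WT mice 1 to 5 it was at 5.22, 4.02, 5.19, 5.00 and 4.49 CPM, from 157 to 192 counts per mouse. Every KO mouse lay above every WT mouse, and KO mouse 5 was the highest. The mean was 7.59 ± 1.03 CPM (SD, n = 5) in KO and 4.78 ± 0.515 CPM (SD, n = 5) in WT mice, 1.59-fold higher, with a log2 fold change of 0.58 (SE 0.11, adjusted p = 0.0194 in edgeR). More cells that make *Tac2* and more *Tac2* RNA per cell cannot be told apart in bulk tissue, for this gene and for all others here.

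The log2 ratio of *Tac2* was similar in both RIN classes. Among mice with a RIN of 9.5 or above, the 3 KO mice were at 6.73 to 7.68 and the 3 WT mice at 4.02 to 5.22 CPM, a log2 ratio of means of 0.67. Among the others, the 2 KO mice were at 6.81 and 9.30 and the 2 WT mice at 5.00 and 5.19 CPM, a log2 ratio of 0.66. Since every KO mouse lay above every WT mouse, no split of the mice could show an overlap or a lower mean in KO. Of 25 alternative fits, including each mouse left out in turn, 15 kept *Tac2* past the threshold, and its log2 fold change stayed between 0.49 and 0.68 in all 25. The call was lost without KO mouse 1 (adjusted p = 0.141), KO mouse 4 (0.0555), WT mouse 3 (0.120), WT mouse 4 (0.0708) or WT mouse 5 (0.116), in linear models on log2(CPM + 1) (adjusted p = 0.0729) or log2(CPM + 0.1) (0.130), with a striatal marker score (0.0950) or the replicate number as a covariate (0.0860), and in the 6 mice of high RIN alone (0.236).

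**Figure D2:**
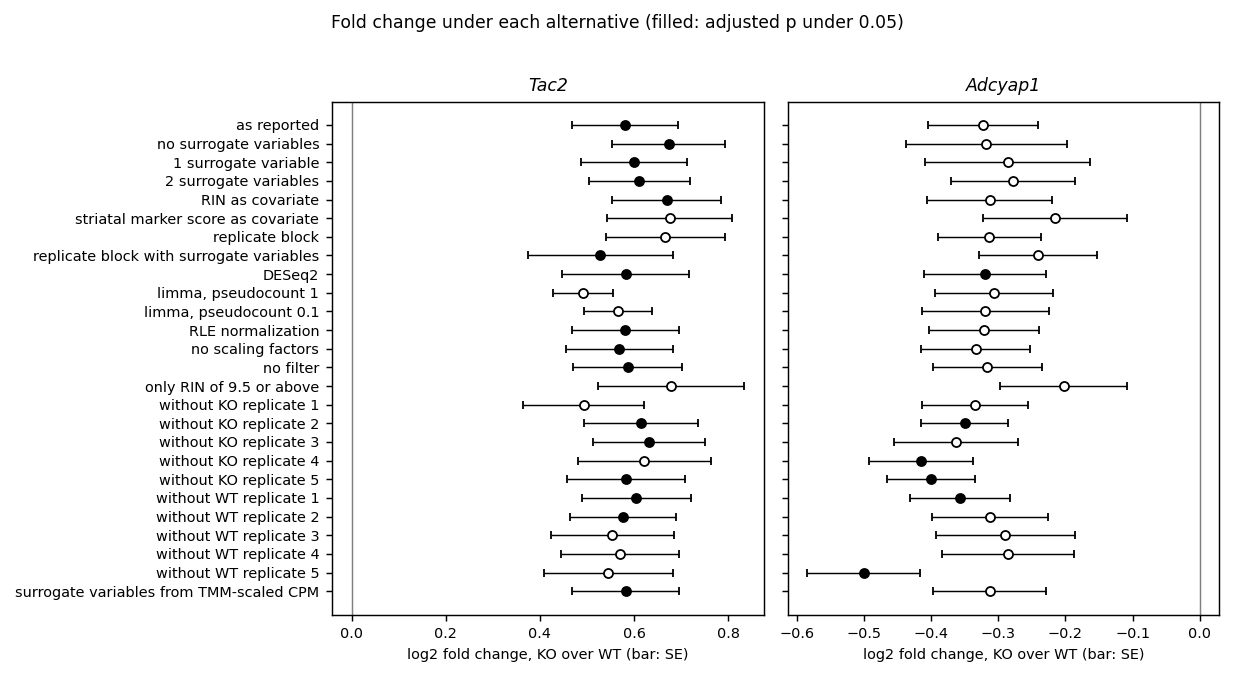
Log2 fold change, KO over WT (horizontal axis), of *Tac2* and *Adcyap1* in the reported fit and 25 alternatives (vertical axis), with SE as bars and filled points where the adjusted p is under 0.05. *Tac2* stays between 0.49 and 0.68 and *Adcyap1* between -0.50 and -0.20, and whether either passes the threshold depends on the fit.

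The sequence of the 250 bases before the annotated start of *Tac2* is printed because it is the upstream region of the 1 gene called. It lies at chr10:127724228-127724477 (GRCm38.p6, plus strand, from RefSeq) and overlaps no exon of Gencode M21. The search covered the cAMP response element (CRE, TGACGTCA, its own reverse complement), its core (TGACG or CGTCA, of which every full CRE holds both) and the AP-1 site (TGANTCA), on both strands. None of these letters occurs in the sequence, so it has no capitals.
Tac2: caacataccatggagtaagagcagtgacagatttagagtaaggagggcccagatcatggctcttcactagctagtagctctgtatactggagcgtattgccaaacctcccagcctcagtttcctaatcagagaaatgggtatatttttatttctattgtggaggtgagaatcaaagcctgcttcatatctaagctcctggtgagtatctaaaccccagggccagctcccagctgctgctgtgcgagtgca

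*Nts* (chromosome 10, 102481756 to 102490486, minus strand, ENSMUSG00000019890.4) encodes the precursor of neurotensin and neuromedin N. It was the least abundant of the 10 genes. *Nts* was at 0.480, 2.66, 0.956, 1.12 and 0.560 CPM in KO mice 1 to 5, from 17 to 85 counts per mouse. In WT mice 1 to 5 it was at 0.365, 0.859, 0.451, 0.473 and 1.85 CPM, from 11 to 65 counts per mouse. KO mouse 2 and WT mouse 5 were the highest of their genotypes, and the ranges overlapped. The log2 fold change of 0.38 had an SE of 0.31, and the adjusted p from edgeR was 0.736. Leaving out each mouse in turn moved it between 0.017 and 0.96.

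*Cort* (chromosome 4, 149125034 to 149126763, minus strand, ENSMUSG00000028971.4) encodes the precursor of cortistatin, a peptide related to somatostatin that binds the same receptors and is made by cortical interneurons. In KO mice 1 to 5 it was at 5.96, 6.83, 5.52, 5.85 and 5.66 CPM, and in WT mice 1 to 5 at 4.65, 3.73, 6.77, 5.53 and 7.08 CPM. All KO mice lay inside the range of the WT mice. The coefficient of variation was 8.58% in KO and 25.4% in WT mice, a difference in spread that was not tested. Its log2 fold change was 0.0070 (SE 0.15, adjusted p = 0.991 in edgeR).

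*Cartpt* (chromosome 13, 99898489 to 99901091, minus strand, ENSMUSG00000021647.7) encodes the precursor of the CART peptides, which act on feeding and reward. *Cartpt* was at 2.94, 4.16, 1.88, 3.40 and 2.92 CPM in KO mice 1 to 5 and at 4.35, 4.82, 2.06, 2.20 and 3.50 CPM in WT mice 1 to 5. The 3 lowest values, 1.88, 2.06 and 2.20 CPM, were in 3 of the 4 mice of low RIN, KO mouse 3 and WT mice 3 and 4, and the genotypes overlapped. Between genotypes the log2 fold change was -0.0013 (SE 0.24, adjusted p = 0.999 in edgeR). Between mice of high and low RIN, with genotype in the model, *Cartpt* had a log2 difference of 0.75 (SE 0.19, adjusted p = 0.105 in edgeR), higher at high RIN.

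*Adcyap1* (chromosome 17, 93199017 to 93206537, plus strand, ENSMUSG00000024256.7) encodes the precursor of PACAP, a peptide of the secretin family that raises cyclic AMP through the receptor *Adcyap1r1*. *Adcyap1* was at 20.2, 16.5, 24.02, 17.7 and 17.4 CPM in KO mice 1 to 5. In WT mice 1 to 5 it was at 22.1, 20.7, 29.3, 27.3 and 20.05 CPM. KO mice were lower on average, 19.2 ± 3.03 against 23.9 ± 4.17 CPM (SD, n = 5 each), and the ranges overlapped through KO mice 1 and 3. Its log2 fold change of -0.32 (SE 0.082) did not pass the threshold (adjusted p = 0.0856 in edgeR). It was below 0 in all 25 alternative fits and passed in 6 of them: in DESeq2 (adjusted p = 0.0292), and in edgeR without KO mouse 2 (0.00644), KO mouse 4 (0.0195), KO mouse 5 (0.00334), WT mouse 1 (0.0304) or WT mouse 5 (0.0116).

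Within RIN classes the ratio of *Adcyap1* was smaller at high RIN. The 3 KO mice of high RIN were at 16.5 to 20.2 and the 3 WT mice at 20.05 to 22.1 CPM, a log2 ratio of means of -0.21 with an overlap. The 2 KO mice of low RIN were at 17.4 and 24.02 and the 2 WT mice at 27.3 and 29.3 CPM, a log2 ratio of -0.45 without one. The RIN term of *Adcyap1* was a log2 difference of -0.31 (SE 0.092, adjusted p = 0.185 in edgeR), higher at low RIN. None of the 10 genes was called between the RIN classes, where 0.335% of all genes were. An unadjusted p under 0.05 for the RIN term was reached by 3 of the 10, *Cartpt*, *Adcyap1* and *Chgb*, and by 10.8% of all genes. The part of RNA integrity in the levels of *Adcyap1* and *Cartpt* was not tested beyond these values.

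**Figure D3:**
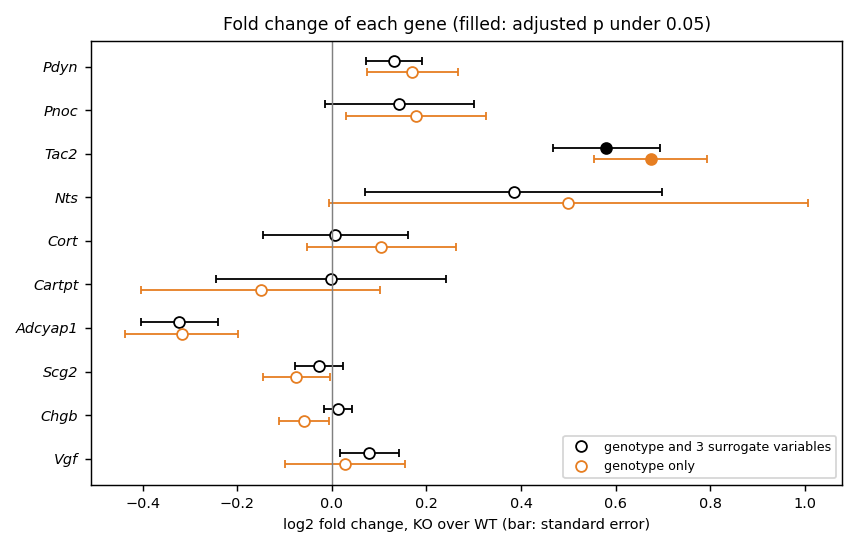
Log2 fold change, KO over WT (horizontal axis, bars are SE), of the 10 genes (vertical axis) with 3 surrogate variables (black) and with genotype alone (orange). Filled points have an adjusted p under 0.05, which is the case for *Tac2* in both fits, at 0.58 and 0.67.

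*Chgb* (chromosome 2, 132781278 to 132795079, plus strand, ENSMUSG00000027350.8) encodes chromogranin B, a core protein of secretory granules. It ranked 286 by mean CPM among the genes tested. It was at 504, 448, 478, 495 and 421 CPM in KO mice 1 to 5, and at 496, 531, 477, 457 and 481 CPM in WT mice 1 to 5. KO mouse 5 was the lowest of all 10 mice and the genotypes overlapped. The mean was 469 ± 34.3 CPM in KO and 489 ± 27.4 CPM in WT mice (SD, n = 5 each), lower in KO mice, while the log2 fold change fitted with surrogate variables was 0.013 (SE 0.030, adjusted p = 0.932 in edgeR). Without surrogate variables it was -0.059 (adjusted p = 0.837), and it was above 0 in 17 of 25 alternative fits, so no direction is given for *Chgb*.

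*Scg2* (chromosome 1, 79434669 to 79440120, minus strand, ENSMUSG00000050711.7) encodes secretogranin II, the precursor of secretoneurin. It was at 219.7, 199, 216, 207 and 161 CPM in KO mice 1 to 5, and at 202, 204, 225, 204 and 219.6 CPM in WT mice 1 to 5. KO mouse 5 again had the lowest value, below all WT mice, while the other KO mice lay between 199 and 219.7 CPM. Its log2 fold change was -0.027 (SE 0.051, adjusted p = 0.912 in edgeR).

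*Vgf* (chromosome 5, 137026392 to 137033351, plus strand, ENSMUSG00000037428.14) encodes a granin-related protein that is induced by nerve growth factor and neuronal activity and is cut into several peptides. *Vgf* was at 297, 299, 308, 267 and 166 CPM in KO mice 1 to 5. In WT mice 1 to 5 it was at 269, 234, 263, 301 and 246 CPM. KO mouse 5 was the lowest of all, and 3 of the other KO mice were above 4 of the 5 WT mice. With KO mouse 5 the log2 fold change was 0.079 (SE 0.062, adjusted p = 0.724 in edgeR), and without it 0.12 (SE 0.046, adjusted p = 0.323). A list of 14 activity-regulated genes, such as immediate early genes, is given beside this gene. Of these, 0 passed the test in edgeR or DESeq2, while 9 passed in the edgeR fit with both the replicate number and surrogate variables, which leaves 1 residual degree of freedom. In the reported fit 5 of the 14 had an unadjusted p under 0.05, beside 10.6% of all genes, 13 had a fold change above 0 and the median log2 fold change was 0.29. Their sum ran from 1037 to 1621 CPM in KO and from 659 to 1331 CPM in WT mice. Over the 10 mice, with genotype means subtracted, *Vgf* and this sum had r = 0.39 and rho = 0.49. Neither passed (permutation tests, p = 0.267, adjusted p = 0.584, and p = 0.154, adjusted p = 0.617, over 30 relations). The part of these genes in the level of *Vgf* was not tested beyond these values.

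RefSeq had promoter entries for 8 of the 10 genes, and CREs in the 250 bases before the start are shown because several of these precursors are classical targets of cyclic AMP signalling. A full CRE was found in 3 of the 8, *Scg2*, *Chgb* and *Cartpt*, and in 1.55% of all 32851 promoter entries over the same 250 bases. A core was found in 6 of the 8 genes and in 17.8% of all entries, and an AP-1 site in 1, *Nts*, and in 6.75% of all entries. The units differ: the 8 genes had 10 entries and a match in any entry counts for the gene, while the shares are per entry. The windows below have the motif in capitals and are written 5′ to 3′ on the strand of the gene. The window of *Scg2* is chr1:79440076-79440105 on the minus strand, that of *Chgb* chr2:132781559-132781588 on the plus strand, that of *Cartpt* chr13:99900777-99900806 on the minus strand and that of *Adcyap1* chr17:93198914-93198942 on the plus strand (GRCm38.p6). The first 3 also fall in exons of longer transcripts of the same genes in Gencode M21. *Adcyap1* has a core only.
Scg2: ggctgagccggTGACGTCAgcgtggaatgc
Chgb: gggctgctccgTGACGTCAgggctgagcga
Cartpt: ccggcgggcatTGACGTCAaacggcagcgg
Adcyap1: ggactaggatgcTGACGtcttttactgat
The 3 genes with a full CRE had log2 fold changes of -0.027, 0.013 and -0.0013 between genotypes, and none of them passed the test (adjusted p = 0.912, 0.932 and 0.999 in edgeR). A match of letters is a description of the sequence and not evidence of binding.

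Spread within a genotype was described by the biological coefficient of variation, the part of the variation that counting noise does not cover. It was 52.1% for *Nts*, larger than for 99.6% of the genes tested when ranked, and 26.7% for *Cartpt*. The other precursors lay between 10.7% (*Pdyn*) and 16.8% (*Cort*), with *Tac2* at 12.5%. *Chgb* was the steadiest of the 10 at 6.46%, close to the trend of 6.41% for genes of its abundance. *Scg2* was at 8.18% and *Vgf* at 14.2%, 2.18 times its trend of 6.502%, and the median of all genes was 8.45%. *Tac2* was the 1 gene of the 10 below its trend, at 0.87 times.

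**Figure D4:**
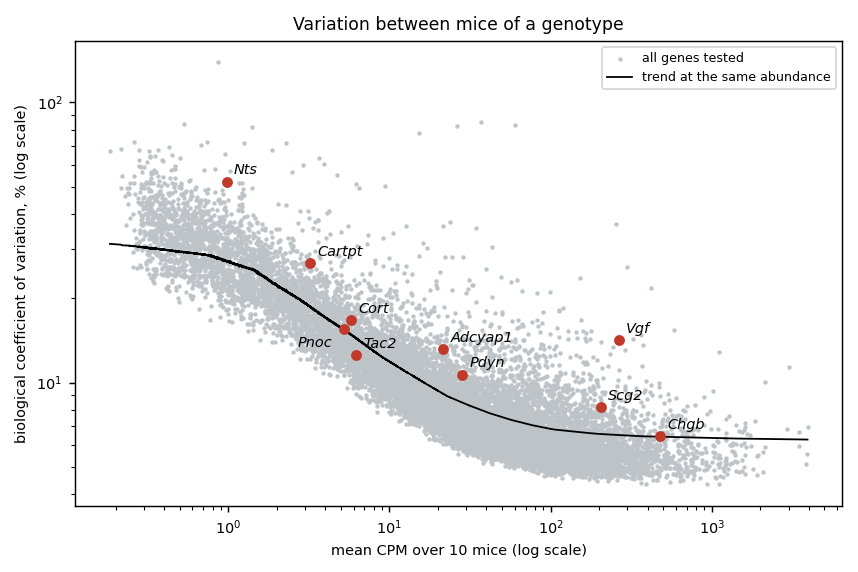
Biological coefficient of variation (vertical axis, %, log scale) against mean CPM over the 10 mice (horizontal axis, log scale) for all genes tested (grey) and the 10 genes (red, labelled), with the trend at the same abundance as a line. *Nts* lies at 52.1% and *Vgf* at 14.2%, 2.18 times the trend.

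KO mouse 5 was the lowest KO mouse for all 3 granins and the highest of all mice for *Pdyn* and *Tac2*. Over the 45 pairs of these genes, with genotype means subtracted, 0 passed an adjusted p under 0.05 in permutation tests and 4 had an unadjusted p under 0.05. The strongest relation was between *Adcyap1* and *Cartpt*, with r = -0.90 (permutation p = 0.00114, adjusted p = 0.0513) and rho = -0.75 (p = 0.0170, adjusted p = 0.394) over 10 mice. It was -0.79 without KO mouse 3 and WT mouse 3, and -0.47 in the 6 mice of high RIN (exact permutation test, p = 0.343). The 4 mice of low RIN were too few for a value of their own. *Pdyn* and *Vgf* had r = -0.78 (permutation p = 0.00744, adjusted p = 0.167) and rho = -0.72, and r = -0.36 without KO mouse 5 and WT mouse 5. *Tac2* and *Chgb* had r = -0.72 (permutation p = 0.0186, adjusted p = 0.258) and rho = -0.68, and r = -0.35 without KO mouse 5 and WT mouse 2. *Scg2* and *Vgf* had r = 0.80 (permutation p = 0.0230, adjusted p = 0.258) and rho = 0.43 (p = 0.219, adjusted p = 0.739). Without KO mice 1 and 5 r was 0.15, so its size depends on those mice. In each pair the mice left out were the 2 most extreme for the first gene, which by itself can lower r.

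**Figure D5:**
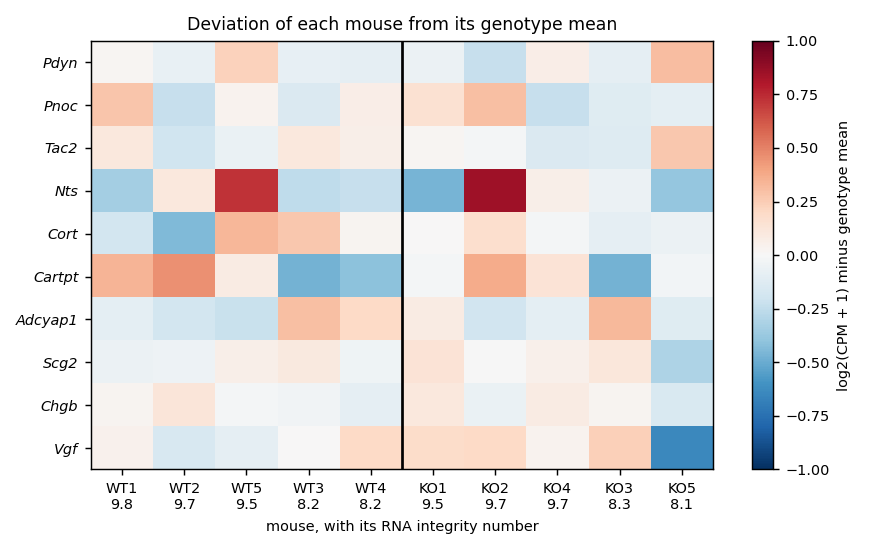
Deviation of each mouse (horizontal axis, with its RIN) from its genotype mean in log2(CPM + 1) (colour scale) for the 10 genes (vertical axis). KO mouse 5 is low for *Vgf*, *Scg2* and *Chgb*, and *Cartpt* is low and *Adcyap1* high in KO mouse 3 and WT mice 3 and 4.

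The gene nearest in pattern was sought for each of the 10, as the highest Pearson's r of log2(CPM + 1) over the 10 mice among all genes tested, with no test since each is the best of many. The 4 closest were *Slc39a12* for *Cartpt* (r = 0.98), *Mvk* for *Pdyn* (0.97), *Fdft1* for *Tac2* (0.96) and *Dnaja2* for *Chgb* (0.96). After *Fdft1*, *Tac2* was followed by *Sparc* (0.95) and *Fbxo10* (0.95), and *Cartpt* by *Rab31* (0.94) and *Cux1* (0.93). *Pdyn* was followed by *Cdk5rap3* and *Ift52* (both 0.95), and *Chgb* by *Cacnb4* (0.95) and *Epc2* (0.95). With genotype means subtracted, r fell to 0.82 for *Tac2* with *Fdft1* and stayed at 0.98 for *Cartpt* with *Slc39a12*. All points share libraries and depth.

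The receptors for these peptides were set beside the ligands. Of 16 receptor genes tested, 1 rose and 0 fell in edgeR, beside 0.844% called among all genes, and 3 had an unadjusted p under 0.05, beside 10.6% of all genes. The median log2 fold change of the receptors was -0.0095. The gene that rose was *Sstr2*, a receptor for somatostatin and cortistatin, from 22.1 ± 3.26 CPM in WT to 28.0 ± 2.31 CPM in KO mice (SD, n = 5 each). Its log2 fold change was 0.34 (SE 0.076, adjusted p = 0.0465 in edgeR). Its ranges overlapped, and the call was kept in 10 of 25 alternative fits. Losses included the fits without surrogate variables (adjusted p = 0.279) and without KO mouse 1 (0.302), KO mouse 3 (0.0682), KO mouse 4 (0.0599), WT mouse 3 (0.198), WT mouse 4 (0.174) or WT mouse 5 (0.413). The most abundant, *Sort1*, *Adcyap1r1* and *Ntsr2*, had log2 fold changes of -0.014, -0.038 and -0.090 and did not pass (adjusted p = 0.932, 0.824 and 0.478 in edgeR). *Tacr3*, the receptor of the *Tac2* peptide, is named after its values were seen. Its level was low, 0.850 ± 0.615 CPM in KO and 0.639 ± 0.331 CPM in WT mice (SD, n = 5 each). The log2 ratio fitted for it was 0.044 (SE 0.55, adjusted p = 0.988 in edgeR).

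The other genes of the peptide pathway were taken by list, starting with the other precursors. Among 17 of these tested, of 44 in the table, 0 rose and 1 fell in edgeR, beside 0.844% called among all genes, and 5 had an unadjusted p under 0.05, beside 10.6% of all genes. The median log2 fold change was -0.058. DESeq2 called 2 of the 17, beside 233 of the 14344 genes tested. They were the gene that fell and *Tac1*, the precursor of substance P, which is named after its values were seen. *Tac1* was at 16.9 ± 1.78 CPM in KO and 12.6 ± 2.47 CPM in WT mice (SD, n = 5 each). In edgeR its log2 fold change was 0.36 (SE 0.092, adjusted p = 0.0915). The 1 that fell was *Apln*, the precursor of apelin, from 36.3 ± 4.12 CPM in WT to 27.9 ± 3.72 CPM in KO mice (SD, n = 5 each). Its log2 fold change was -0.35 (SE 0.063, adjusted p = 0.0110 in edgeR, and 0.214 without surrogate variables). The call on *Apln* was kept in 14 of 25 alternative fits. Other losses included the fits without KO mouse 1 (adjusted p = 0.126), WT mouse 3 (0.0737) or WT mouse 5 (0.412), with RIN (0.0514) or the striatal score (0.0970), and at high RIN alone (0.278). The most abundant precursors, *Cck*, *Sst* and *Npy*, had log2 fold changes of -0.072, -0.092 and -0.19 and did not pass (adjusted p = 0.556, 0.464 and 0.197 in edgeR). Among 4 other granins, 12 processing enzymes and 12 genes of the release machinery, 0 passed in edgeR, DESeq2 or the linear model, and 0, 1 and 1 had an unadjusted p under 0.05 in edgeR. The highest in each list were *Pcsk1n*, *Scg3* and *Scg5*, with log2 fold changes of 0.11, -0.0065 and 0.066, then *Cpe*, *Pcsk2* and *Pam* (0.0017, -0.014 and 0.047), and *Ptprn*, *Syt7* and *Ptprn2* (0.025, -0.015 and 0.0031).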

How the data were processed

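PFC RNA of 5 KO and 5 WT mice was sequenced by the authors as stranded, poly(A)-selected, 101-base paired-end libraries. Per the submitters' notes and methods, reads were aligned to mm10 with STAR 2.7.1a, uniquely mapped reads were kept, and HTSeq 0.9.1 counted them on exons of Gencode M21 protein-coding genes (intersection-strict). The deposited values are raw counts for 22000 genes. Whether HTSeq used strand is not given in the sources used here, and none of the 10 genes overlaps another M21 gene. Separate mice are replicates, and no pair of libraries agreed within sampling noise.

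From these counts, edgeR 4.0.16 (R 4.3.3) with TMM scaling, its filter on low counts and a quasi-likelihood test was fitted to 14344 genes with genotype and 3 surrogate variables (sva 3.50.0 on log2(CPM + 1), seed 1), and p-values were adjusted over all genes. SE is the log2 fold change over the root of F. DESeq2 1.42.0 and limma 3.58.1 were alternatives, as were other covariates, scalings, filters, pseudocounts, each mouse left out, and a fit to 6 mice of RIN 9.5 or above. The paper fitted linear models to CPM, also with surrogate variables from sva. The scripts were tested on simulated data. Correlations used 100000 permutations, or all of them for 6 mice. CPM per kilobase used the union of M21 exons. Python 3.11.15 with numpy 2.4.6, scipy 1.17.1, pandas 2.3.3 and matplotlib 3.10.9 made tables and figures.

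The 10 genes and all lists were chosen with earlier results of these data known. All 10 genes and *Zbtb16* are named, and of each pathway list the genes called and the 3 with the highest mean CPM. The 3 genes nearest in pattern are named for the 4 genes with the highest r.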

Additional observations from a re-analysis of the deposited data

Results flagged for a closer look

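In 26 sets of 5 values (the 10 genes, *Zbtb16*, the library total and the Y-linked counts in each genotype), the lowest or highest mouse was compared with its nearest neighbour, and 2 sets had a gap above Dixon's critical value of 0.71 of the range. Chance gives about 1 in 20 such groups. The first was *Vgf* in KO mice, where KO mouse 5 was at 166 CPM, with a gap of 0.712 of the range to the next KO mouse at 267 CPM. The second was the library total in KO mice, where KO mouse 5 had 51231439 counts, with a gap of 0.782 of the range. Values of *Vgf* are scaled to depth, and the part of depth in its level in this mouse was not tested.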

How the results depend on the processing

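The number of genes called over the whole table, 121, depended on the covariates and the tool. It was 30 without surrogate variables, 34 with 1, 57 with 2, 38 with RIN, 13 with the striatal score, 233 in DESeq2, 8 and 0 in limma with pseudocounts of 1 and 0.1 (1522 genes had an unadjusted p under 0.05 in the reported fit), 1 in mice of high RIN alone, and 39 to 248 when a mouse was left out. Of the 10 genes, 1 was called as reported, 2 in DESeq2 (*Tac2* and *Adcyap1*), 0 with the striatal score, in limma with either pseudocount and at high RIN alone, and 0 to 2 without a mouse. Calls on the pathway lists, 2 as reported, came to 3 in DESeq2 (*Apln*, *Sstr2* and *Tac1*), 0 without surrogate variables, with 1 of them, RIN, the striatal score, limma and high RIN alone, 1 without scaling factors, and 0 to 2 without a mouse.

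Replicate numbers in the titles join different mice. Same-numbered mice deviated together with r from -0.11 to 0.17, and differently numbered mice with r from -0.25 to 0.20. Whether the numbers stand for a shared litter or batch is not given in the labels and was not tested. With the replicate block, 24 genes, 0 of the 10 genes and 0 list genes were called, and *Tac2* had a log2 fold change of 0.67 (adjusted p = 0.0860). With the block and surrogate variables, which leaves 1 residual degree of freedom, there were 547, 1 and 8, and 9 of the 14 activity-regulated genes, against 0 in every other fit.

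Directions turned where the fold change was near 0. *Chgb* was at -0.059 without surrogate variables and at high RIN alone, -0.057 with RIN, -0.060 with the block, -0.021 and -0.023 with 1 and 2 surrogate variables and -0.040 with the striatal score. *Cartpt* was at 2.1e-06 and 0.0070 in limma with pseudocounts of 1 and 0.1, 0.00048 with RLE factors and 0.0053 without a filter. *Cort* was at -0.0039 without scaling factors and -0.0063 with surrogate variables from TMM-scaled CPM, an alternative added after seeing the data. *Scg2* was at 0.0022 at high RIN alone. Without a mouse, *Cort* ran from -0.070 to 0.14, *Cartpt* from -0.14 to 0.28, *Pnoc* from -0.0034 to 0.30, *Scg2* from -0.066 to 0.031 and *Chgb* from -0.00098 to 0.031. The cause of these changes was not tested. Depth limits *Nts*, with 11 to 85 counts per mouse, more than the other 9 genes.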
